A study of Mus musculus with 6 samples.

Results

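The genes described here are 34 genes of glucose uptake, glycolysis and pyruvate fate, chosen by gene name from the 54532 genes of the deposited table. They run from the glucose transporters to the kinases that regulate pyruvate dehydrogenase. MC3T3-E1 is a clonal mouse pre-osteoblast line from calvaria, labelled as osteoblasts. All 6 samples were grown in osteogenic medium, which per the study's methods holds β-glycerophosphate, ascorbic acid and dexamethasone. The 3 control samples received nothing further, and the 3 metformin samples also received 0.2 mM metformin, a biguanide that lowers blood glucose. Cells were induced for 3 days, and the study sequenced them to ask how metformin acts on osteoblast differentiation. The study's methods call the 3 samples per group biological replicates. The labels do not name separate cultures, and p-values measure the spread between these samples. Aldoa is listed under 2 gene identifiers, so the 34 genes have 35 entries.

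Glycolysis splits glucose into pyruvate in the cytosol. Glucose enters through transporters, is phosphorylated by hexokinase, passes the phosphofructokinase step that commits it to the pathway, and is cut into triose phosphates that are oxidised to pyruvate. Pyruvate is then either reduced to lactate by lactate dehydrogenase and exported, or carried into mitochondria and oxidised by pyruvate dehydrogenase, which the pyruvate dehydrogenase kinases switch off. Osteoblasts are known to consume much glucose and to release much of it as lactate. Metformin is known to act on mitochondrial complex I. Several of these genes are known targets of hypoxia-inducible factors, which bind the hypoxia response core ACGTG.

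Promoter windows from RefSeq (GRCm38.p6, 250 bases before to 50 after an annotated start) were found for 32 of the 34 genes, in 52 windows. Stretches of 3 of them are shown because these genes hold the core and were higher with metformin in every alternative run. They lie upstream of the start on the plus strand, at chr7:46845644-46845789 for Ldha (160 to 15 bases before the start), chrX:106186935-106186988 for Pgk1 (165 to 112 bases before) and chr19:41911742-41911776 for Pgam1 (129 to 95 bases before). Capitals mark ACGTG on either strand, which reads CACGT on the opposite one, and CACGTG, the E-box, which contains both.
Ldha: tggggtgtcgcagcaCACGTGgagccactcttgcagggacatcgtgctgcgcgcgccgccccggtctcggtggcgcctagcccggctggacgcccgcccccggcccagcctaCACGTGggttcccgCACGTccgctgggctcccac
Pgk1: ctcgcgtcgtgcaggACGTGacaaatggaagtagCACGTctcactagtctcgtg
Pgam1: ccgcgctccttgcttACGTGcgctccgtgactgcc
ACGTG was in 42.3% of the windows of the glucose genes and in 19.6% of all 32851 windows of the same length. CACGTG was in 11.5% of their windows and in 7.15% of all. The core was in a window of 5 of the 11 genes that were higher with metformin (Ldha, Pgk1, Pgam1, Aldoa and Pkm) and of 11 of the 17 genes that were tested without a call. Among all genes with windows it was in 5886 of 27025. By window, the share was 33.3% for the genes that were higher and 53.8% for those without a call. These matches describe letters in these windows only.

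The samples held 18399861 to 22111790 recovered reads, and 3 reads were 1.36e-05% to 1.63e-05% of a sample, a floor for counting error alone. Values are FPKM, the reads of a gene per length and per library. Tests were made with limma on log2(FPKM + 1) over the 12681 genes whose mean FPKM was 0.5 or more, and a gene was called at a Benjamini-Hochberg adjusted p under 0.05. The added 1 shrinks the fold change of genes with low FPKM. Control replicate 1 stood apart: its log2 values had Pearson correlations of 0.96 and 0.952 with the other controls across genes, against 0.988 between those controls and 0.992 between metformin samples. Its deviation from the other controls had a Spearman correlation of -0.668 with GC content across 12663 genes, which are not independent replicates. Taken the same way, the correlation was 0.411 for control replicate 2 and 0.635 for control replicate 3. Both of these were taken against a mean that includes control replicate 1. All 8 osteoblast markers passed the filter, among them Runx2 and Sp7, the transcription factors that define the lineage. Of these markers, 2 were higher (Col1a1 and Col1a2) and 2 lower (Spp1 and Ibsp), and their summed FPKM was 10004 to 11752 in controls and 6793 to 7184 with metformin. In controls most of that sum was Spp1, whose mean FPKM was 7703 in controls and 2704 with metformin. Without Spp1 the range was 2618 to 3564 in controls and 4089 to 4457 with metformin. Col1a1 and Col1a2 made up most of the sum without Spp1, while the mean of Ibsp went from 814 to 265. Summed markers of adipocytes were 1.65 to 3.08 in controls and 1.88 to 2.31 with metformin, those of macrophages 1.97 to 2.18 and 1.12 to 1.35, those of chondrocytes 26.6 to 39.9 and 28.7 to 30.4, and those of muscle and endothelium at most 0.427. Cd68, the only macrophage marker tested, was lower (mean FPKM 2.04 and 1.17), while the leukocyte gene Ptprc and the muscle factors Myod1 and Myog were at or near 0. The part of these shifts in the results below was not tested. In bulk samples, more cells that express a gene and more RNA per cell cannot be told apart.

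Summed over the 35 entries, FPKM was 895, 1009 and 973 in controls and 1564, 1627 and 1529 with metformin. The groups did not overlap, and the mean went from 959 ± 58.4 to 1573 ± 49.6 (SD, n = 3 each). Of the 35 entries, 30 passed the filter on low values. Of these, 11 were called higher, where 13.2% of all tested genes were, and 1 was called lower, where 9.28% of all tested genes were. All 3 metformin samples lay above all 3 controls for 17 entries, against 23.6% of all tested genes, and below them for 2, against 20.5%. The median log2 fold change of the tested entries was 0.304, and 0.00532 over all tested genes. After correction for GC content within each library, 11 were higher and 3 lower. Without metformin replicate 1 or replicate 2, 7 were higher.

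**Figure D1:**
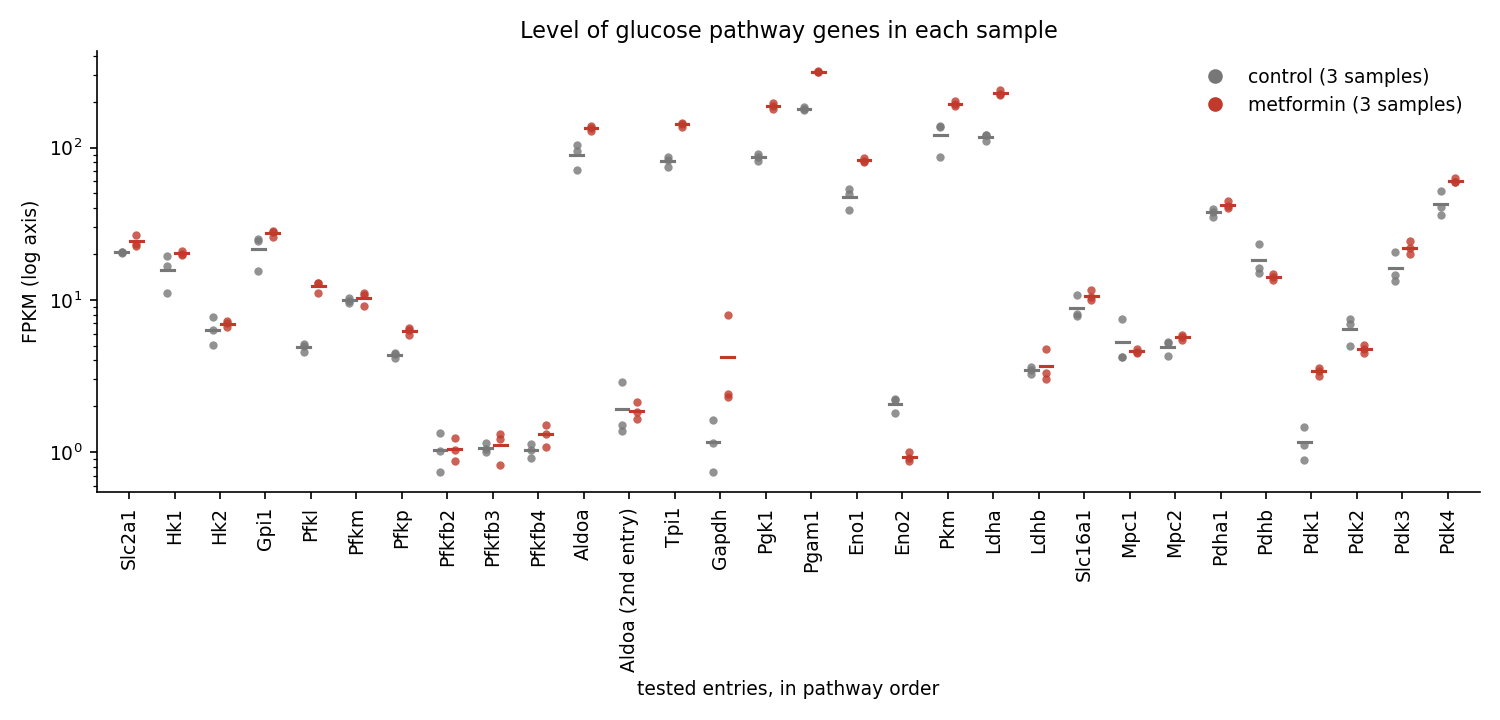
FPKM (log axis) of the 30 tested entries in pathway order, with 1 point per sample (gray, 3 controls; red, 3 metformin samples) and a line at each group's mean. The 7 tested entries from Tpi1 to Pkm show separate groups, with only Eno2 lower, while Pfkm, Hk2 and the Pfkfb genes overlap.

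Transport and the first phosphorylation showed small differences that did not pass the test. Slc2a1, the basal glucose transporter of most cells, had 20.3, 20.5 and 20.6 FPKM in controls and 23.4, 26.6 and 22.7 with metformin. Its log2 fold change of 0.23 had a 95% interval of 0.018 to 0.44 and an adjusted p of 0.115, although the groups did not overlap. Slc2a3 had at most 3 reads in any sample, and Slc2a4, the insulin-responsive transporter, had 0 in all 6. For Slc2a4 a count of 0 allows up to 1.36e-05% to 1.63e-05% of a sample. Hk1, the more abundant hexokinase here, had a log2 fold change of 0.37 (interval -0.080 to 0.83, adjusted p = 0.211), or 0.15 without control replicate 1, and Hk2, the inducible form, 0.14 (interval -0.20 to 0.47, adjusted p = 0.536). Hk1 held 71.0 ± 1.99% of the FPKM of both in controls and 74.3 ± 1.16% with metformin (SD, n = 3; exact permutation p = 0.1, the smallest possible). Gpi1, which turns glucose 6-phosphate into fructose 6-phosphate, had 15.4, 24.2 and 25.0 FPKM in controls and 28.0, 28.5 and 26.0 with metformin. Control replicate 1 was far under the other controls, and the log2 fold change of 0.37 (interval -0.068 to 0.80, adjusted p = 0.202) was 0.15 without it, again without a call.

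At the committed step the 3 phosphofructokinase subunit genes behaved differently from each other. Pfkl, the liver-type subunit (chr10:77986947-78010083), had 4.55, 4.99 and 5.11 FPKM in controls and 12.9, 13.0 and 11.1 with metformin. The lowest metformin sample was above every control by more than the spread of either group. Its log2 fold change of 1.18 (SE 0.094, adjusted p = 0.000342) was the largest of the 30 entries on this scale, a ratio of 2.52 between the group means. Pfkp, the platelet-type subunit (chr13:6579768-6648777), had 4.14, 4.48 and 4.43 FPKM in controls and 6.38, 6.51 and 5.86 with metformin, with no overlap and a log2 fold change of 0.44 (SE 0.080, adjusted p = 0.00973). The adjusted p of Pfkp was 0.0535 with a replicate block and 0.0617 and 0.0622 without metformin replicate 1 and replicate 2, within a range of 0.00388 to 0.0622 over the 14 alternatives. Pfkp overlaps Pitrm1 on the opposite strand by 748 bases, and the counting is not stated to use strand. Pitrm1 had 827, 897 and 931 reads in controls and 1239, 1515 and 1207 with metformin. Both genes of this overlap had more reads in every metformin sample than in any control. Pfkm, the muscle-type subunit, was not called, with a log2 fold change of 0.047 and an interval of -0.18 to 0.27 (adjusted p = 0.768).

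The shares of the subunit genes shifted with them. Pfkl made up 24.6%, 25.2% and 26.7% of the summed FPKM of the 3 subunit genes in controls and 43.1%, 42.4% and 42.5% with metformin. Pfkm went from 51.8 ± 1.48% to 35.6 ± 0.675% (SD, n = 3), so by FPKM Pfkm led in every control and Pfkl in every metformin sample. Pfkp made up 22.7 ± 0.399% and 21.7 ± 0.706%, with overlapping groups, a difference of -1.04 points that was -5.18 points when reads were not divided by gene length. The order also depended on that division: by reads, Pfkp led in every control (1013, 1259 and 1168, against 598, 723 and 630 for Pfkm). With metformin, Pfkp had 1696, 1901 and 1529 reads and Pfkl 1711, 1885 and 1439. An exact two-sided permutation test gave p = 0.1 for the shares of Pfkl and Pfkm, the smallest that 3 against 3 samples allow, and 0.193 after Benjamini-Hochberg adjustment over 27 family shares.

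**Figure D2:**
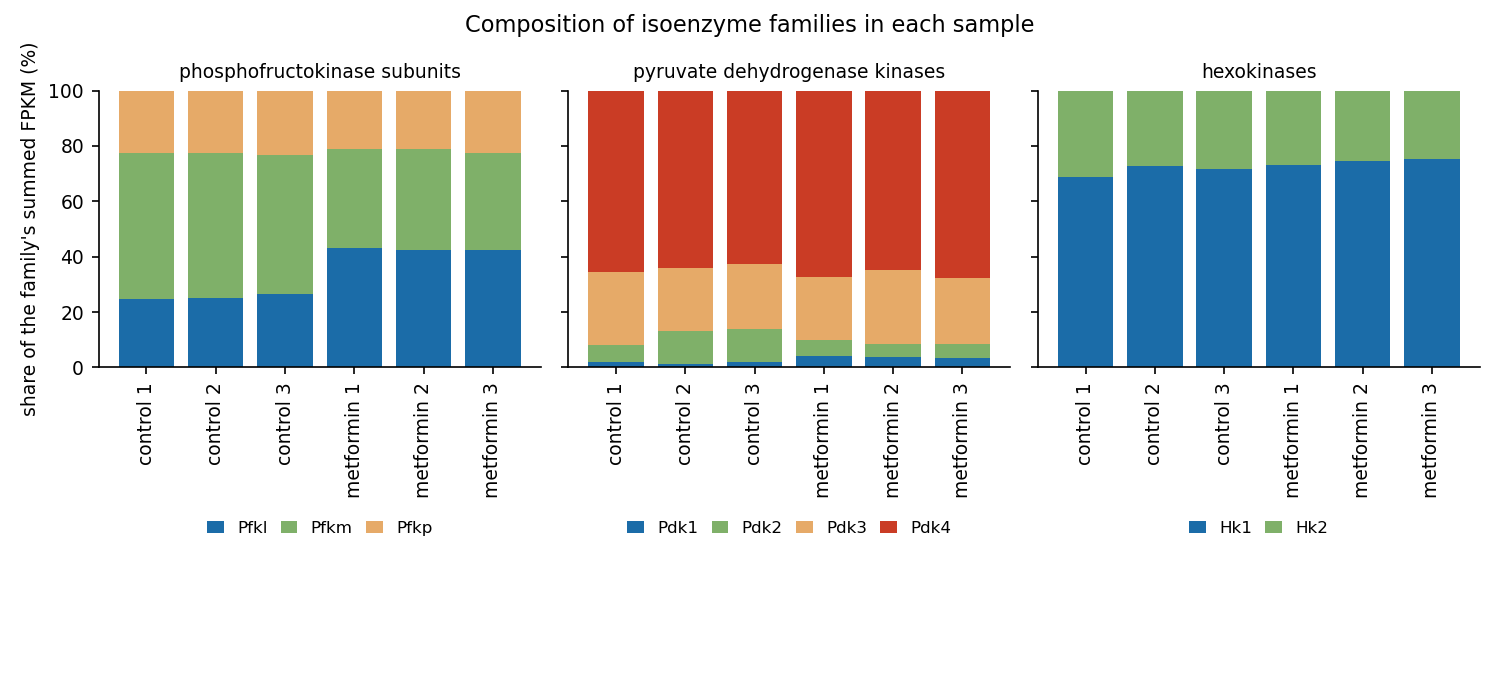
Share of each gene in the summed FPKM of its family (percent, stacked bars), 1 bar per sample, for phosphofructokinase subunits, pyruvate dehydrogenase kinases and hexokinases. Pfkl is the largest phosphofructokinase share only in the 3 metformin samples, where it is 42.4% to 43.1%, while Pdk4 is the largest kinase share in every sample.

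The bifunctional enzymes set the level of fructose 2,6-bisphosphate, an activator of phosphofructokinase. Of their 4 genes, Pfkfb2, Pfkfb3 and Pfkfb4 had log2 fold changes of 0.020, 0.028 and 0.18 without a call (adjusted p = 0.936, 0.893 and 0.279), and Pfkfb1, with 22 to 49 reads, was under the filter. Aldoa, the aldolase that cuts fructose 1,6-bisphosphate (chr7:126795234-126800751), had 70.7, 103 and 94.5 FPKM in controls and 135, 139 and 128 with metformin. The groups did not overlap and its log2 fold change was 0.59 (SE 0.15, adjusted p = 0.0323). That call was lost with a replicate block (adjusted p = 0.0554), without the filter (0.0709), and without control replicate 3 or any 1 metformin sample (0.0530 to 0.125), within a range of 0.00289 to 0.125. The second Aldoa entry had at most 2.87 FPKM and a log2 fold change of 0.0079, and Aldoc, the brain-type aldolase, had at most 3 reads. From uptake to aldolase, 3 of 12 tested entries were called higher (25%, against 13.2% of all tested genes) and 0 lower (against 9.28%).

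Most genes of the steps from triose phosphate to pyruvate were called. Of 7 tested genes, 5 were called higher (71.4%, against 13.2% of all tested genes) and 1 lower (14.3%, against 9.28%), with a median log2 fold change of 0.81. Their summed FPKM went from 519 ± 48.5 to 927 ± 28.8 (SD, n = 3). Tpi1, which interconverts the triose phosphates (chr6:124810586-124814296), had 74.0, 87.3 and 82.8 FPKM in controls and 143, 145 and 137 with metformin. Its groups were far apart, with a log2 fold change of 0.80 (SE 0.095, adjusted p = 0.00182). Pgk1, the first ATP-yielding enzyme (chrX:106187100-106203699), had 81.8, 90.6 and 87.2 FPKM in controls and 189, 196 and 180 with metformin. The ratio of the group means was 2.17, and the log2 fold change was 1.11 (SE 0.089, adjusted p = 0.000344). Pgam1, the phosphoglycerate mutase (chr19:41911871-41918664), was the gene of highest mean FPKM among the 34, with 179, 183 and 177 in controls and 315, 319 and 312 with metformin. Its samples lay close together within each group, with a log2 fold change of 0.81 (SE 0.081, adjusted p = 0.000868).

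The 2 enolase genes moved in opposite directions. Eno1, the form found in most tissues (chr4:150236721-150248879), had 38.8, 53.3 and 49.5 FPKM in controls and 82.2, 85.2 and 80.6 with metformin. Control replicate 1 was its lowest sample, and the log2 fold change was 0.81 (SE 0.13, adjusted p = 0.00602) with it and 0.68 without it. Eno2, the neuronal form (chr6:124760053-124769673), had 2.22, 1.81 and 2.20 FPKM in controls and 0.996, 0.868 and 0.916 with metformin. It was the only one of the 30 entries called lower, and fell by 0.67 on the log2 scale (SE 0.097, adjusted p = 0.00399). Its share of enolase FPKM went from 4.32 ± 1.06% to 1.11 ± 0.0953% (SD, n = 3; exact permutation p = 0.1, the smallest possible). Pkm, the pyruvate kinase of most tissues (chr9:59656368-59679375), had 86.9, 136 and 138 FPKM in controls and 192, 202 and 187 with metformin. Control replicate 1 was far under the other controls, and the log2 fold change of 0.71 (SE 0.19, adjusted p = 0.0368) was 0.49 without it. The call of Pkm was lost with scaling by total reads, without the filter, without control replicate 2 and without any 1 metformin sample (adjusted p = 0.0522 to 0.132), within a range of 0.00117 to 0.132.

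Gapdh, the triose phosphate dehydrogenase that is often used as a reference gene, was listed at a low level in this table, below Tpi1 and Pgk1 in FPKM in every sample. It had 0.742, 1.15 and 1.61 FPKM in controls and 2.29, 7.96 and 2.41 with metformin, where metformin replicate 2 stood above the others. All metformin samples were above all controls, but its log2 fold change of 1.12 (interval 0.17 to 2.07, adjusted p = 0.0903) was not called, and was 0.65 without metformin replicate 2. Of the reads in Gapdh and its near-identical copies, 57.1% to 82.5% were listed under the 84 copies that had reads. With those copies added, Gapdh had 12.7, 27.2 and 25.4 RPM (reads scaled by the library) in controls and 48.1, 76.6 and 54.1 with metformin, again without overlap and a ratio of 2.74. For the called genes Eno1, Pkm, Tpi1, Pgam1, Ldha and Pgk1, near-identical matches held 0.179% to 9.36% of the reads. The ratios with these matches were 1.61 to 2.18. For Pkm the matches include Gm49759, which overlaps Pkm on the same strand by 3887 bases and is not a separate copy. Gm49759 had 216, 169 and 168 reads in controls and 352, 271 and 317 with metformin. The only match of Pfkp was Pitrm1, which is the overlapping gene on the opposite strand and not a copy. Pitrm1 held 41.6% to 44.95% of the reads of both genes. Since Pitrm1 also had more reads with metformin, the ratio of 1.43 for both together does not show which reads belong to Pfkp. The only copy of Aldoa had 0 reads. How reads that match several copies were assigned is not given in the sources used here.

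**Figure D3:**
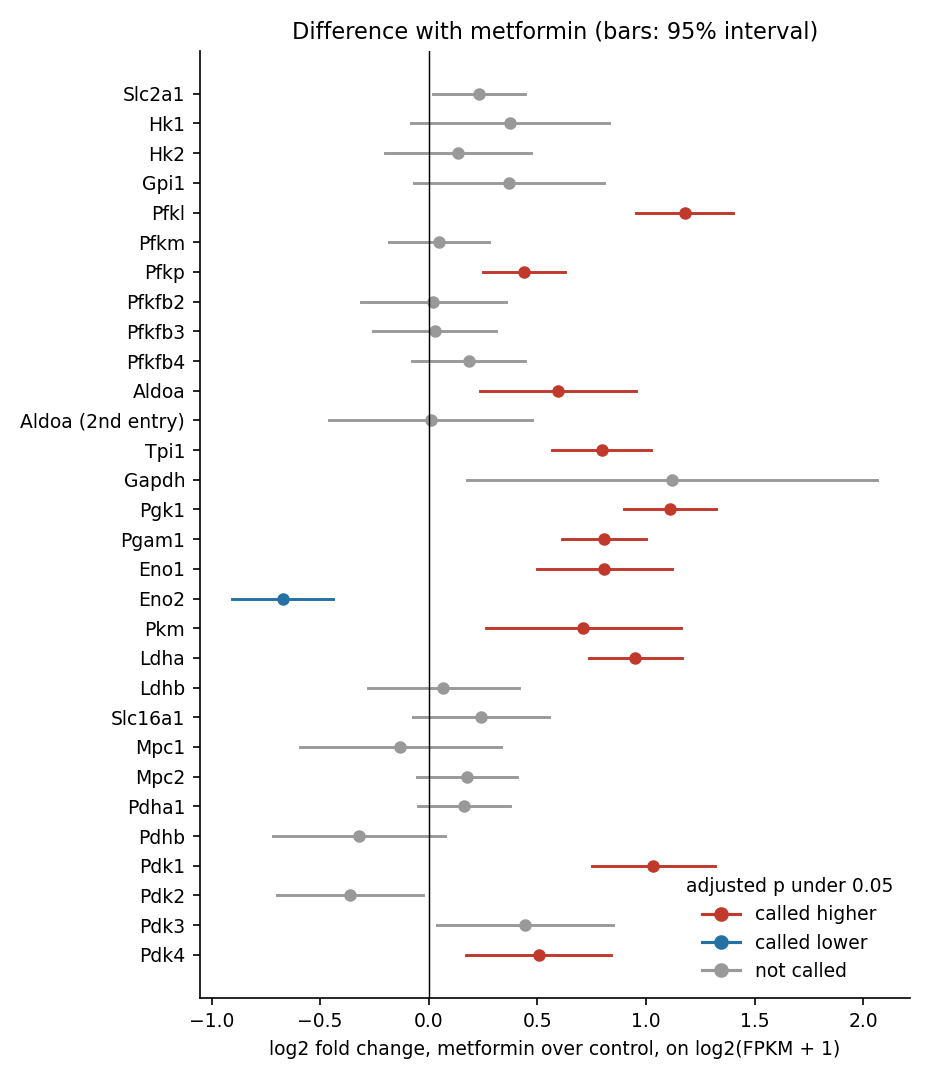
Log2 fold change of metformin over control on the log2(FPKM + 1) scale for the 30 tested entries (points) with 95% intervals (bars), in pathway order. Red marks the 11 called higher, blue the 1 called lower (Eno2) and gray the 18 without a call, among them Gapdh with an interval of 0.17 to 2.07.

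On the lactate side, the rise was in the dehydrogenase subunit and not called in the transporter. Ldha, the subunit of the isoenzymes that favour lactate formation (chr7:46841475-46855627), had 121, 121 and 110 FPKM in controls and 226, 237 and 220 with metformin. The groups were separate, with a log2 fold change of 0.95 (SE 0.090, adjusted p = 0.000677). Ldhb, the heart-type subunit, was not called, at 0.066 with an interval of -0.28 to 0.41 (adjusted p = 0.783). Ldha held 97.2 ± 0.0790% of the FPKM of both subunits in controls and 98.4 ± 0.452% with metformin (SD, n = 3; exact permutation p = 0.1, the smallest possible). That difference of 1.24 points was 0.600 points when reads were not divided by gene length. Slc16a1, a lactate and pyruvate transporter, had a log2 fold change of 0.24 (adjusted p = 0.238) and was called higher only without control replicate 1 (log2 fold change 0.37, adjusted p = 0.00823, range 0.00823 to 0.514). Slc16a3, the lactate exporter of highly glycolytic cells, had 3 to 28 reads and was not tested.

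At the entry of pyruvate into mitochondria, 2 of 8 tested genes were called higher and 0 lower. That share of 25%, against 13.2% of all tested genes, rests on 2 genes, both of them inhibitory kinases. The carrier subunits Mpc1 and Mpc2 had log2 fold changes of -0.13 and 0.18 (adjusted p = 0.671 and 0.238). For Mpc1, 70.1% to 76.1% of the reads of the gene and its copies were listed under copies, so its own level is uncertain. Pdha1, the catalytic subunit of pyruvate dehydrogenase, had 34.9, 37.9 and 39.5 FPKM in controls and 40.2, 44.3 and 41.4 with metformin, without overlap. Its log2 fold change of 0.16 (interval -0.050 to 0.37, adjusted p = 0.243) was not called. Pdhb, the partner subunit, had a log2 fold change of -0.32 (adjusted p = 0.216), and was called lower only after the GC correction (adjusted p = 0.0435, range 0.0435 to 0.425). Without control replicate 1, its highest sample, the log2 fold change was -0.13.

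Pdk1, a kinase that inactivates pyruvate dehydrogenase (chr2:71873224-71903858), had 1.46, 0.889 and 1.12 FPKM in controls and 3.58, 3.42 and 3.16 with metformin. The ratio of group means, 2.93, was the largest of the called genes, and the log2 fold change was 1.03 (SE 0.12, adjusted p = 0.00153). Pdk4, the kinase known to follow fasting and fatty acid use (chr6:5483351-5496309), had 51.7, 41.0 and 35.8 FPKM in controls and 59.5, 59.4 and 62.8 with metformin. Control replicate 1 was its highest control, and the log2 fold change of 0.51 (SE 0.14, adjusted p = 0.0441) was 0.65 without that sample. This was the least stable of the called genes: its call was lost in 7 of the 14 alternatives, which were the replicate block (adjusted p = 0.0850), no filter and leaving out control replicate 2, control replicate 3 or any 1 metformin sample (up to 0.149).

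Pdk2 and Pdk3 were not called, and both depended on control replicate 1. Pdk2 had a log2 fold change of -0.36 (interval -0.70 to -0.025, adjusted p = 0.118), and was lower without control replicate 1 (adjusted p = 0.00232) and after GC correction (0.00583), within a range of 0.00232 to 0.305. Pdk3 had a log2 fold change of 0.44 (interval 0.037 to 0.85, adjusted p = 0.112), and was higher only without control replicate 1 (adjusted p = 0.00222, range 0.00222 to 0.307). Among the 4 kinase genes, Pdk1 was the rarest by FPKM in every sample: its share went from 1.73 ± 0.302% to 3.74 ± 0.320%, while that of Pdk4 was 64.1 ± 1.42% and 66.7 ± 1.63% (SD, n = 3). The share of Pdk2 went from 10.1 ± 3.22% to 5.25 ± 0.441%, and that of Pdk3 was 24.1 ± 1.87% and 24.3 ± 1.99% (SD, n = 3). The exact permutation p was 0.1, the smallest possible, for Pdk1 and Pdk2, 0.2 for Pdk4 and 0.8 for Pdk3. When reads were not divided by gene length, the differences of 2.004 points for Pdk1 and 2.63 points for Pdk4 were 4.44 and 0.698 points. The order of Pdk1 and Pdk2 with metformin also depended on that division. By reads, Pdk1 had 207, 145 and 171 in controls and 552, 579 and 479 with metformin. Pdk2 had 289, 499 and 428 reads in controls and 317, 307 and 293 with metformin.

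Of the 12 called genes, 8 were called in each of 14 alternatives: Pfkl, Tpi1, Pgk1, Pgam1, Eno1, Ldha and Pdk1 higher, and Eno2 lower. The other 4 were Pfkp, Aldoa, Pkm and Pdk4. No called gene changed sign in any alternative.

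**Figure D4:**
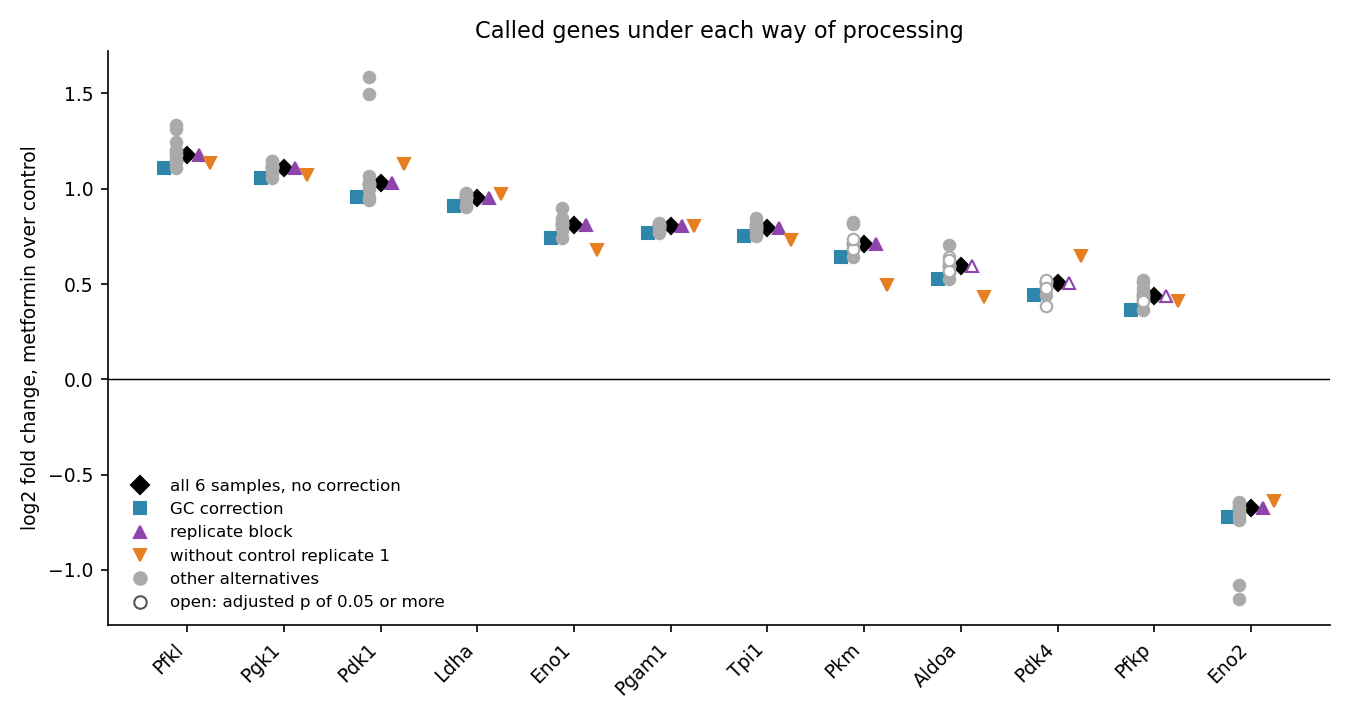
Log2 fold change of the 12 called genes with all 6 samples (black diamonds) and in each of 14 alternatives, where open symbols have an adjusted p of 0.05 or more. Open symbols appear only for Pkm, Aldoa, Pdk4 and Pfkp, and no symbol crosses 0.

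Beyond these genes, a list of 47 other genes of glucose transport, gluconeogenesis, the pyruvate dehydrogenase complex and the glucose-sensing factors was counted. Of these, 24 were tested, 5 were higher (20.8%, against 13.2% of all tested genes) and 3 lower (12.5%, against 9.28%), and the median log2 fold change was 0.056. The difference of largest size was in Txnip, a glucose-induced arrestin that restrains glucose uptake, with 149, 157 and 164 FPKM in controls and 33.8, 36.4 and 35.8 with metformin. It fell by 2.12 on the log2 scale (SE 0.084, adjusted p = 6.43e-05), and its paralogue Arrdc4, with 8.95, 7.33 and 8.39 FPKM in controls and 5.15, 4.73 and 4.22 with metformin, fell by 0.69 (SE 0.11, adjusted p = 0.00489). These arrestins are both known targets of the carbohydrate-sensing MondoA factor, whose gene Mlxip was not called (log2 fold change -0.26, adjusted p = 0.0911). Pgam2, the muscle phosphoglycerate mutase, was lower, with 4.43, 6.13 and 7.69 FPKM in controls and 3.18, 2.79 and 3.54 with metformin, and fell by 0.74 (SE 0.18, adjusted p = 0.0266), while its paralogue Pgam1 rose.

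Pcx, which turns pyruvate into oxaloacetate, had 16.3, 20.8 and 23.5 FPKM in controls and 35.0, 35.5 and 32.2 with metformin, a log2 fold change of 0.75 (SE 0.14, adjusted p = 0.0106). Pck2, the mitochondrial enzyme that makes phosphoenolpyruvate from oxaloacetate, had 5.25, 7.55 and 6.70 FPKM in controls and 10.6, 10.9 and 11.2 with metformin, a log2 fold change of 0.68 (SE 0.13, adjusted p = 0.0103). For both, every metformin sample was above every control. Tigar, which breaks down fructose 2,6-bisphosphate, Adpgk, an ADP-dependent glucokinase, and Dlat, a pyruvate dehydrogenase complex subunit, were also higher. The number called higher was 2 with a replicate block and 3 without the filter. It was 2 without control replicate 2, 3 without control replicate 3, and 1, 0 and 2 without metformin replicates 1, 2 and 3. The number called lower was 6 after GC correction and 6 without control replicate 1.

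Because ACGTG is read by hypoxia-inducible factors, 20 genes of these factors, their regulators and their targets outside glycolysis were counted as well. Of 16 tested, 4 were higher and 4 lower (25% each, against 13.2% and 9.28% of all tested genes), with a median log2 fold change of 0.053. The 4 others were under the filter on low values. Among them, Egln3 had 8, 11 and 13 reads in controls and 30, 41 and 29 with metformin. Ankrd37 had 5, 5 and 3 reads in controls and 29, 26 and 16 with metformin. Epas1 and Adm had overlapping groups. Car9, a carbonic anhydrase, had 0.261, 0.331 and 0.707 FPKM in controls and 1.77, 1.39 and 1.69 with metformin, a log2 fold change of 0.88 (SE 0.14, adjusted p = 0.00653). P4ha1, a collagen prolyl hydroxylase subunit, had 34.2, 29.6 and 28.2 FPKM in controls and 53.3, 53.9 and 49.6 with metformin, a log2 fold change of 0.76 (SE 0.10, adjusted p = 0.00280). Higd1a, a mitochondrial protein, had 6.50, 6.88 and 6.48 FPKM in controls and 11.6, 10.6 and 10.9 with metformin, a log2 fold change of 0.66 (SE 0.076, adjusted p = 0.00159). For these 3 genes every metformin sample was above every control. Egln1, an oxygen-sensing hydroxylase, was also higher. Vhl, the ubiquitin ligase subunit that marks the factors for degradation, had 31.6, 25.5 and 25.0 FPKM in controls and 19.5, 17.3 and 18.3 with metformin, and fell by 0.55 on the log2 scale (SE 0.11, adjusted p = 0.0163). Ndrg1 had 4.55, 4.18 and 4.66 FPKM in controls and 3.15, 2.89 and 2.71 with metformin, and fell by 0.48 (SE 0.086, adjusted p = 0.00897). Both had separate groups, and Mxi1 and Kdm3a were lower as well. Hif1a itself was not called (log2 fold change 0.18, adjusted p = 0.587). The 2 counts were 8 and 8 without control replicate 1. The number called lower was 2 without control replicate 2, 1 without metformin replicate 1, 0 without metformin replicate 2 or 3, and 2 with a replicate block.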

How the data were processed

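RNA of MC3T3-E1 cells was sequenced (3 control and 3 metformin samples). The authors deposited 1 table with a value and a length per gene. It names no unit. The deposited values are taken as FPKM, since value times gene length gave whole reads for 100% of values above 0 (tolerance 0.01), scaled by the authors' library sizes. Counting, strand use and the definition of length are not given in the sources used here. The submitters' processing notes list Bowtie 0.12.2 and the builds mm8 and mm9, while the table's coordinates for 34 of 35 entries are those of GENCODE M21 (GRCm38). Columns of other samples numbered 0. Depth and the share of 3 reads are given with the results.

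The 34 genes and all lists were chosen with earlier results of these data known. Named with values in every sample are the called genes and the 10 of highest mean FPKM, plus the 5 largest calls of each other list. The values for Slc2a1, Gapdh, Eno3, Egln3, Ankrd37, Gm49759 and the copies were added after their values were seen. The same holds for the names Mlxip, Hif1a, Epas1 and Adm. Groups were compared with limma 3.58.1 (R 4.3.3, trend, two-sided) on log2(FPKM + 1) over genes whose mean FPKM was 0.5 or more, which replaced any count model, and checked on simulated data. The simulated samples shared 1 level of spread and had no GC bias. That check therefore does not cover a sample that stands apart, such as control replicate 1. Family shares were compared by exact permutation (scipy 1.17.1). Copies were transcripts with 95% identity over 200 bases (BLAST+ 2.17.0). Promoter windows were RefSeq's. Other settings were voom on recovered reads, the replicate block, no filter, a filter of 10 reads in every sample, scaling by total reads, a pseudocount of 0.1, GC correction per library (spline, 5 degrees of freedom) with and without the block, and leaving out each sample. Same-numbered samples had deviation correlations of -0.0534, 0.000265 and -0.0549, so the numbers were not taken as pairs. No 2 samples agreed within sampling noise (lowest median chi-square per gene 1.14). Plots were made in matplotlib 3.10.9 under Python 3.11.15.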

Additional observations from a re-analysis of the deposited data

How the results depend on the processing

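Counts are for the glucose genes unless stated. The 11 called higher ranged from 7 to 13 when 1 sample was left out, and the 1 called lower from 1 to 2, and lower calls were 3 with GC correction and 2 with GC correction and a replicate block. The replicate block alone gave 8 higher and 1 lower, losing Pfkp, Aldoa and Pdk4, and left no other call changed. Same-numbered samples did not deviate together, so the block is not evidence of pairing. The median log2 fold change of 0.304 was 0.206 without the filter, 0.2401 with at least 10 reads in every sample, 0.359 with voom, 0.260 with GC correction and with GC correction and the block, and 0.2214 to 0.3296 when 1 sample was left out. The other glucose pathway genes called higher (5) were 3 without the filter, 2 with the block, 3 with the block and GC correction and 0 to 7 with 1 sample left out. Those called lower (3) were 6 with GC correction, 5 with the block as well and 2 to 6 with 1 sample left out. Among the hypoxia-inducible factors, their regulators and their targets, those called higher (4) were 3 to 8 with 1 sample left out. Those called lower (4) were 2 with the block and 0 to 8 with 1 sample left out.

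Sign changes occurred only in 7 entries without a call. With GC correction the log2 fold change was -0.0028 for Pfkm (also with the block), -0.048 for Pfkfb2, -0.024 for Pfkfb3 and -0.087 for the second Aldoa entry, which was -0.012 with scaling by total reads. With 1 sample left out the ranges were -8.456e-05 to 0.2651 for Hk2, -0.0054 to 0.1251 for Pfkm, -0.0862 to 0.128 for Pfkfb2, -0.03832 to 0.1295 for Pfkfb3, -0.1229 to 0.2293 for the second Aldoa entry, -0.09164 to 0.17 for Ldhb and -0.251 to 0.1 for Mpc1. Over all genes, 1670 were higher and 1177 lower, and 2062 and 2433 with GC correction. Leaving out control replicate 1 gave 2974 and 2587, and leaving out 1 metformin sample gave 926 to 969 and 486 to 526. The cause of these changes was not tested. Without dividing by gene length, the difference in the share of Pfkl was 14.7 points against 17.2 and that of Pfkm -9.57 against -16.1, and those of Pfkp, Ldha, Pdk1 and Pdk4 moved as given with each share. Depth limits Slc2a3, Slc2a4, Aldoc, Slc16a3 and Pfkfb1, which had at most 49 reads in a sample.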
